A study of Mus musculus with 6 samples.

Results

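Cytosolic and mitochondrial chaperones were examined in group 2 innate lymphoid cells (ILC2s) of the mouse lung. The members were 93 of the 39527 genes of the authors' deposited table. They were the protein-coding genes named as heat shock proteins, J-domain proteins, subunits of the chaperonin TRiC, prefoldin subunits, BAG proteins, heat shock factors, Stip1 or Ahsa1. The chaperones of the endoplasmic reticulum (ER) Hspa5, Hsp90b1, Dnajb9, Dnajb11 and Dnajc3 were left out. Membership rested on gene names and not on any measured value, but the rule was chosen with earlier results of these data known.

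RNA sequencing was done on sorted lung ILC2s after 4 days of IL-33, an epithelial alarmin that activates these cells. Of 6 samples, 3 came from R5/+ mice (WT) and 3 from R5/+LKB1f/f mice (KO), so that R5/+ and the IL-33 challenge were common to both groups. LKB1 is the kinase encoded by Stk11, and f/f is the usual notation for floxed alleles. The labels do not expand R5/+, name the promoter that drives a recombinase or give ages, and each sample pooled 3 to 4 mice. The values used were those of the authors' comparison of the genotypes, which holds 1 fold change and 1 standard error per gene. Values of single samples could not be matched to the labels and were not used here, so that overlap between the groups is not shown for any gene.

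Chaperones bind proteins that are not yet folded or have lost their fold. HSP70 proteins bind short exposed stretches and are driven through their ATP cycle by J-domain proteins, which deliver substrates, and by nucleotide exchange factors such as HSP110 and BAG proteins. HSP90 acts later, on kinases and receptors near their native state, while the ring-shaped chaperonins enclose a substrate: TRiC in the cytosol, for actin and tubulin above all, and HSP60 with its lid HSP10 in mitochondria. Heat shock factor HSF1 binds inverted repeats of GAA in promoters and raises the inducible members when proteins misfold. In activated lymphocytes growth and secretion place a load on folding, and warming or enzymatic digestion of tissue can also induce the heat shock genes.

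Promoter stretches are shown for Hspd1 and Hspe1, which lie on opposite strands with overlapping 5′ ends, and for inducible members with opposite signs to Hspd1. They come from RefSeq on GRCm38.p6, the assembly called mm10, which listed 75 of the 93 members. Capitals mark inverted GAA repeats, found in the 250 bases before a start as GAANNTTC or TTCNNGAA (2 units) or, overlapping these, as GAANNTTCNNGAA or TTCNNGAANNTTC (3 units), on both strands. Stretches that overlap an annotated exon of any transcript are cut to 30 bases. The Hspd1 and Hspe1 lines are the same 30 bases at chr1:55088053-55088082, read on the minus strand for Hspd1 and on the plus strand for Hspe1. The Hspa1a stretch lies at chr17:34972217-34972296, with the same 80 bases before Hspa1b, the Hsph1 stretch at chr5:149636351-149636380 (both minus strand) and the Dnaja4 stretch at chr9:54699433-54699512 (plus strand).
Hspd1: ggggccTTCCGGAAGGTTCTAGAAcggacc
Hspe1: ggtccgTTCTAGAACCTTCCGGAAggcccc
Hspa1a: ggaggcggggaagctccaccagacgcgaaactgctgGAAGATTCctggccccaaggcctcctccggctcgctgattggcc
Hsph1: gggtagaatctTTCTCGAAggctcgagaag
Dnaja4: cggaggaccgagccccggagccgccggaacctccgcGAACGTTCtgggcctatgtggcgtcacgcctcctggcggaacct

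The sign of a fold change was read against Stk11. No source used here names the numerator, so signs are given as deposited and no gene is placed on the WT or the KO side. Stk11, the floxed gene, stood at -1.34 ± 0.30 (SE) on the log2 scale in the authors' deposited table (adjusted p = 0.000103), and a negative sign below is the sign of Stk11. A gene is called positive or negative here when its adjusted p, taken over all genes that the authors tested, was below 0.05. Of the transcripts that define ILC2s, Gata3, Rora and Il1rl1 were abundant, with means of 44552, 27348 and 16936 normalized counts in the authors' deposited table. Of 12 ILC2 markers 2 were called positive, Gata3 (0.63 ± 0.16) and Kit (1.53 ± 0.16). Called negative were 3, Klrg1 (-0.44 ± 0.12), Il13 (-1.06 ± 0.18) and Thy1 (-1.98 ± 0.75). Il13 and Thy1 had lower means, of 618.6 and 291.2 normalized counts in the authors' deposited table. Among 49 tested markers of other cell types, 10 (20.4%) were called negative and 0 positive, beside 14.7% and 11.3% of all tested protein-coding genes. Of these markers 41 lay below 0, with a median of -0.88 and a median standard error of 0.94. Their share in the results below was not tested, and in bulk RNA a change in the number of cells cannot be told apart from a change of RNA per cell.

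Calls among the members had both signs and varied by role. Of the 93 members, 82 had an adjusted p, 6 were called positive and 21 negative, and 55 were not called. The called share of tested members was 32.9%, against a background of 26.0% of 13059 tested protein-coding genes, which were positive in 11.3% and negative in 14.7%. For members the share was 7.32% positive and 25.6% negative. Members were more abundant than most genes, with a median of 821.8 normalized counts against 384.3, and among the most abundant 25% of tested protein-coding genes 16.2% were positive and 24.1% negative. The median log2 fold change was -0.18 over tested members and -0.03 over tested protein-coding genes. The split of calls depended on scaling: 10 positive and 19 negative members were counted after centring on the most abundant 25% of genes, where 12.8% and 13% of all tested protein-coding genes were called. Removal of trends with gene length and GC content gave 9 and 14, beside 11.3% and 11.5%. The 11 members without an adjusted p were Dnajb3, Dnajb7, Dnajb8, Dnajc22, Hsf3, Hsf5, Hspa1l, Hspb2, Hspb3, Hspb7 and Hspb9, none with a mean above 10.1 normalized counts in the authors' deposited table.

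**Figure D1:**
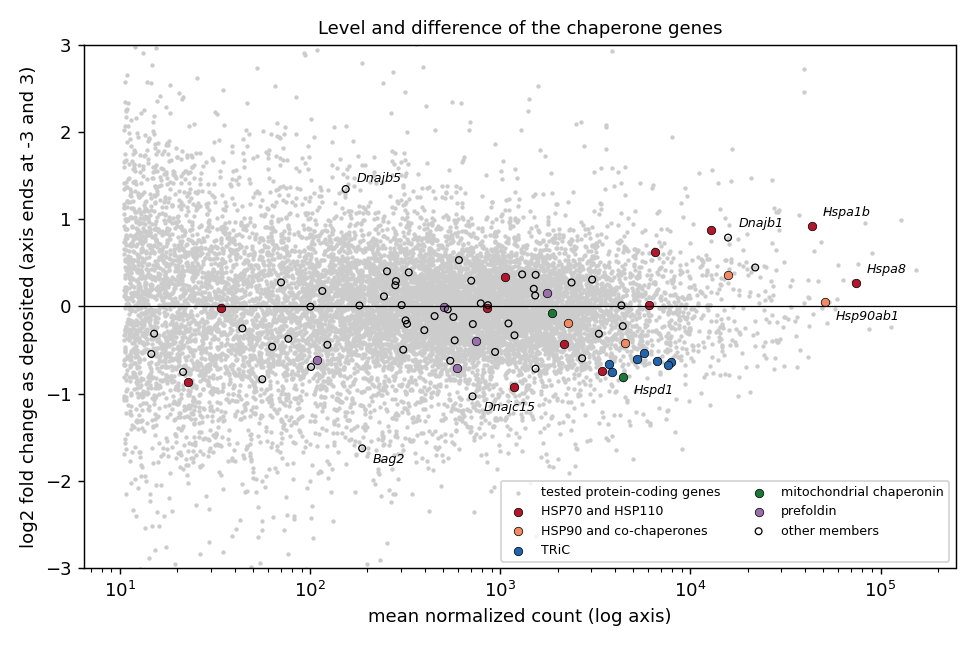
Log2 fold change as deposited (vertical axis) against mean normalized count (horizontal log axis) for tested protein-coding genes (grey) and the 82 tested members (coloured by role, other members as open circles). The 7 members with means over 10000 lie above 0, of which Dnajb1 and Hspa1a were called. The 7 TRiC subunits form a cluster between -0.75 and -0.54.

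The HSP70 family held members at both ends. Hspa1a, an inducible cytosolic HSP70, was positive at 0.88 ± 0.25 (SE), a 1.84-fold difference with a mean of 12785 normalized counts in the authors' deposited table (adjusted p = 0.00363). Hsph1, the inducible HSP110 that exchanges nucleotide on HSP70, was positive at 0.63 ± 0.22 in the authors' deposited table (adjusted p = 0.0211), but not when p was adjusted with no filter on low means (adjusted p = 0.0548). Hspa1b, the neighbour of Hspa1a on chromosome 17, had a similar value with a wider error, 0.92 ± 0.43, and was not called in the authors' deposited table (adjusted p = 0.106). The coding sequences of Hspa1a and Hspa1b were 99.43% identical over 1929 aligned bases, and 247 of the 250 bases before their starts were the same. Reads from one can therefore be given to the other, and the split between both genes is uncertain. Exons of Hspa1a also overlap those of Gm20481 over 19.01% of their length. On the negative side stood Hspa2, a relative best known from the testis, at -0.93 ± 0.18 and the mitochondrial HSP70 Hspa9 at -0.74 ± 0.17 in the authors' deposited table (adjusted p = 7.47e-06 and 0.000273). Hspa14, a ribosome-associated HSP70, was called at -0.43 ± 0.17 in the authors' deposited table (adjusted p = 0.0402). Its call was lost after centring (adjusted p = 0.065), with length and GC trends removed (0.0959) and with no filter on low means (0.103), at values from -0.43 to -0.37.

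The other 6 tested HSP70 and HSP110 genes besides Hspa1b were not called. Hspa8, the constitutive HSP70 and the most abundant member, had 0.26 ± 0.22 at a mean of 74264 normalized counts in the authors' deposited table. Its 95% interval, from -0.17 to 0.70, holds differences of both signs. Hspa4, a constitutive HSP110, had 0.02 ± 0.15 and its relative Hspa4l 0.34 ± 0.16 in the authors' deposited table. Hspa13, which is bound to microsomes, had -0.02 ± 0.18 in the authors' deposited table. Hspa12a and Hspa12b, distant relatives, had means of 22.8 and 33.8 normalized counts in the authors' deposited table, and their 95% intervals ran from -2.84 to 1.10 and from -1.57 to 1.53.

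**Figure D2:**
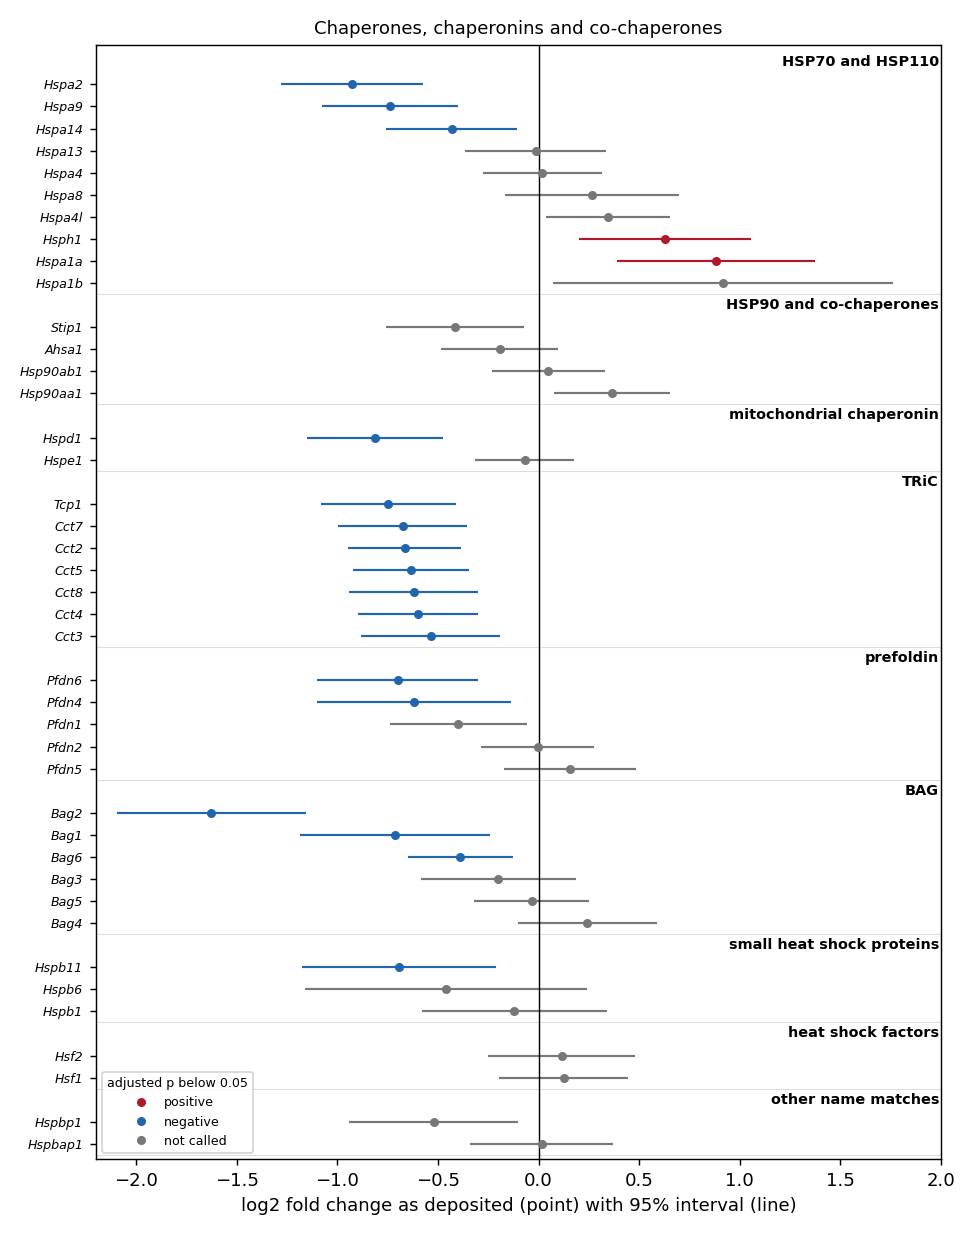
Log2 fold change as deposited (point) with its 95% interval (line) for 41 members outside the J-domain family, by role, red and blue where called positive and negative. The 5 tested members with a standard error above 0.5 are not drawn. All 7 TRiC intervals lie below 0, while Hspa1a and Hsph1 lie above it.

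HSP90 and its helpers gave 0 calls among 4 tested genes. The inducible HSP90 gene Hsp90aa1 had 0.37 ± 0.15, just outside the threshold in the authors' deposited table (adjusted p = 0.0521). It was called with the adjustment over protein-coding genes alone (adjusted p = 0.0491) and, at 0.49, with length and GC trends removed (0.00707). The group had 1 positive call after centring and with only genes of a mean of at least 100 normalized counts. It had 0 with no filter on low means. Hsp90ab1, the constitutive form, had 0.05 ± 0.14 at a mean of 50991 normalized counts in the authors' deposited table, with a 95% interval from -0.23 to 0.33. Stip1, which hands clients from HSP70 to HSP90, had -0.42 ± 0.18 in the authors' deposited table (adjusted p = 0.0672). Ahsa1, which speeds the ATPase of HSP90, had -0.19 ± 0.15 in the authors' deposited table. At the unadjusted level, Hsp90aa1 and Stip1 had p of 0.0129 and 0.018 in the authors' deposited table, with opposite signs.

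All 7 TRiC subunits among the members were called negative, and Cct6a was not analysed here. Of all tested protein-coding genes 14.7% were called negative, and of the most abundant 25% of them 24.1%. The chaperonin is built from different subunits in each ring, and the 7 tested here lay between -0.75 and -0.54, with a median of -0.63. Tcp1, the first subunit (ENSMUSG00000068039, mm10 chromosome 17, 12915701 to 12925067), had -0.75 ± 0.17 in the authors' deposited table (adjusted p = 0.000196). Cct5, the most abundant of the subunits, had -0.63 ± 0.15 at a mean of 7883 normalized counts in the authors' deposited table (adjusted p = 0.000247). The smallest difference belonged to Cct3, at -0.54 ± 0.18 or 1.45-fold in the authors' deposited table (adjusted p = 0.013). In the authors' deposited table Cct7, Cct2, Cct8 and Cct4 had -0.68, -0.66, -0.62 and -0.60. Their 95% intervals overlap, so that no order among the subunits can be read from these values. Expressed neighbours with overlapping exons on the other strand were mixed. Mrpl18 (2.80% of Tcp1 exons) had -0.91 ± 0.19 and Pradc1 (3.16% of Cct7 exons) -1.01 ± 0.21 in the authors' deposited table, both called negative. Usp16 (6.22% of Cct8 exons) had -0.07 ± 0.13 and was not called in the authors' deposited table (adjusted p = 0.743). Removal of length and GC trends left all 7 called, between -0.69 and -0.44.

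Prefoldin, which passes newly made actin and tubulin chains to TRiC, was mixed. Pfdn6 was called at -0.70 ± 0.20 and Pfdn4 at -0.62 ± 0.25 in the authors' deposited table (adjusted p = 0.00462 and 0.0494). Pfdn4 was not called after centring (adjusted p = 0.0681) or with no filter on low means (0.126). Pfdn1 had -0.40 ± 0.17, Pfdn2 -0.0049 ± 0.14 and Pfdn5 0.15 ± 0.17 in the authors' deposited table, and these 3 were not called. Exons of Pfdn5 share 11.84% of their length with Myg1 on the same strand, which was called negative at -0.50 ± 0.19 and a mean of 463.7 normalized counts in the authors' deposited table, so that reads of both genes may be mixed. Prefoldin genes are short, with a median exonic length of 1394 bases against 4584.5 over tested protein-coding genes. With length and GC trends removed, 0 of 5 were called, and Pfdn6 stood at -0.43 (adjusted p = 0.114). Of 11 tested genes for tubulins and actins, the substrates of this route, 7 (63.6%) were called negative and 0 positive, with a median of -0.80. The called genes were all tubulins. Of all tested protein-coding genes 14.7% were called negative, and of the most abundant 25% of them 24.1%. The smallest p-values belonged to Tuba1b (-1.44 ± 0.22), Tubb5 (-1.20 ± 0.19) and Tubg1 (-1.02 ± 0.19) in the authors' deposited table. The actin genes Actb and Actg1, singled out after their values were seen, were not called in the authors' deposited table (adjusted p = 0.996 and 0.348). Their 95% intervals ran from -0.38 to 0.38 and from -0.55 to 0.10.

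In mitochondria the chaperonin was called and its lid was not. Hspd1, which encodes HSP60 (ENSMUSG00000025980, mm10 chromosome 1, 55077835 to 55088243), had -0.81 ± 0.17, a 1.76-fold difference in the authors' deposited table (adjusted p = 4.98e-05). Hspe1, which encodes HSP10 and lies on the other strand, had -0.07 ± 0.13 in the authors' deposited table (adjusted p = 0.742). Their 95% intervals, from -1.15 to -0.47 and from -0.32 to 0.18, do not overlap, and the difference between both genes was not tested. The exons of Hspe1 share 112 bases with those of Hspd1, 7.60% of its exonic length, and the library kit does not mark strand. With length and GC trends removed, Hspd1 stood at -0.61 and Hspe1 at 0.26, the latter not called (adjusted p = 0.117).

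The remaining mitochondrial members were J-domain proteins apart from Hspa9. Dnajc15, which sits at the import channel of the inner membrane, had the largest difference among them, at -1.03 ± 0.15 in the authors' deposited table (adjusted p = 3.87e-10). Its relative at the same channel, Dnajc19, had -0.20 ± 0.14 and was not called in the authors' deposited table. Dnaja3, the J-domain partner of Hspa9 in the matrix, had 0.01 ± 0.15 and Dnajc11, of the cristae contact sites, 0.04 ± 0.15 in the authors' deposited table. Dnajc30 and Dnajc28, with means of 76.8 and 21.4 normalized counts, had -0.37 ± 0.28 and -0.75 ± 0.82 in the authors' deposited table. Of 9 mitochondrial members 3 (33.3%) were thus called negative and 0 positive. Among 14 mitochondrial chaperones and proteases that are no members, 3 (21.4%) were negative and 0 positive. These were the disaggregase Clpb (-0.85 ± 0.23), the HSP90 paralog Trap1 (-0.57 ± 0.16) and the exchange factor Grpel1 (-0.49 ± 0.13), all in the authors' deposited table. Of all tested protein-coding genes 14.7% were negative, and of the most abundant 25% of them 24.1%.

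J-domain proteins formed the largest family, with 40 members and 36 tested. Of these, 4 were called positive, 4 negative and 28 not called, and the median was 0.01, or -0.035 with length and GC trends removed. The called share of 22.2% was close to the background. Dnajb5, a DNAJB protein close to Dnajb1 in sequence (ENSMUSG00000036052, mm10 chromosome 4, 42949814 to 42959425), had the largest positive value among tested members, 1.35 ± 0.21 at a mean of 153.7 normalized counts in the authors' deposited table (adjusted p = 1.73e-08). Dnajb1, the inducible HSP40 that works with Hspa1a and Hspa8, had 0.79 ± 0.17 at a mean of 15777 normalized counts in the authors' deposited table (adjusted p = 8.09e-05). Dnaja4 had 0.53 ± 0.19 and Dnajc14, an aid of receptor transport, 0.37 ± 0.12 in the authors' deposited table (adjusted p = 0.0221 and 0.0163). With no filter on low means Dnaja4 was not called (adjusted p = 0.0573). Exons of Dnaja4 overlap those of Wdr61 on the other strand over 44.05% of their length, and Wdr61 was called with the opposite sign, at -0.49 ± 0.15 in the authors' deposited table. Exons of Dnajc14 overlap those of Ormdl2 over 16.99%, and Ormdl2 had -0.36 ± 0.19 in the authors' deposited table.

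Negative J-domain proteins were Dnajc15, Dnajb13, Dnajc9 and Dnajc8. Dnajc9, a histone co-chaperone, had -0.59 ± 0.17 and Dnajc8, a splicing-associated protein, -0.31 ± 0.11 in the authors' deposited table (adjusted p = 0.004 and 0.0164). Neither was called with length and GC trends removed (adjusted p = 0.0962 and 0.545). Dnajb13, best known from sperm and ciliary axonemes, had -0.62 ± 0.15 at a mean of 545.6 normalized counts in the authors' deposited table (adjusted p = 0.000336). Its exons overlap over 11.16% with those of Ucp2 on the other strand, which had a mean of 23233 normalized counts and a fold change of 0.34 ± 0.14 in the authors' deposited table, so that its level is uncertain. Dnaja1, the most abundant of the family at 21931 normalized counts, had 0.45 ± 0.18, just outside the threshold in the authors' deposited table (adjusted p = 0.0532). Dnaja2 and Dnajb6, other abundant cytosolic forms, had -0.23 ± 0.13 and 0.01 ± 0.16 in the authors' deposited table. The list of members placed in the ER by textbook location does not hold Dnajc14, which was called positive. Among its 8 tested members, 0 were called by the adjusted p of the authors' deposited table. At an unadjusted p under 0.05 stood 2 of them, Dnajc1 (0.36 ± 0.15, p = 0.0163) and Dnajc16 (0.40 ± 0.20, p = 0.0432), in the authors' deposited table.

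**Figure D3:**
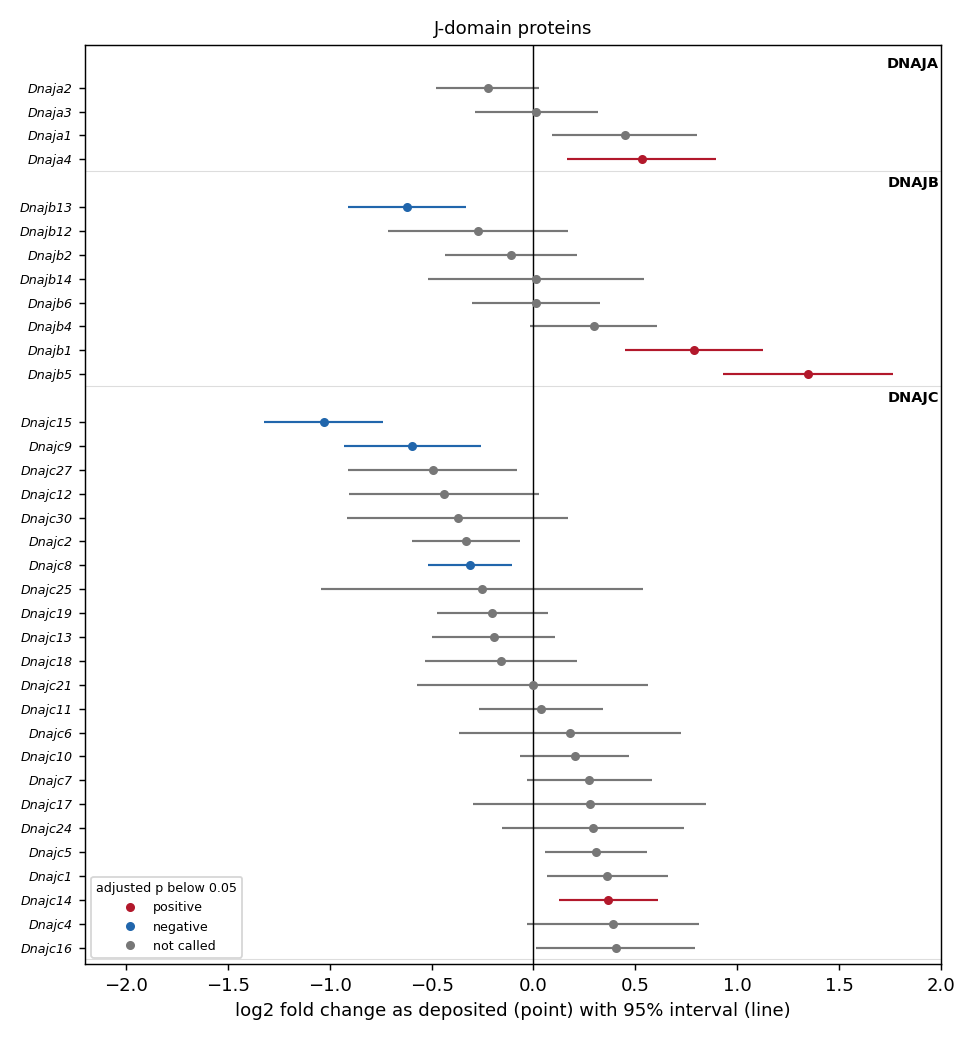
Log2 fold change as deposited (point) with its 95% interval (line) for 35 of 36 tested J-domain proteins by class, red and blue where called positive and negative. Dnajc28, with a standard error above 0.5, is not drawn. Dnajb5 and Dnajb1 stand apart on the right and Dnajc15 on the left, and most intervals cross 0.

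BAG proteins, which release substrates from HSP70, were called negative in 3 of 6, beside 14.7% of all tested protein-coding genes. The difference between this small group and the background was not tested. Bag2, an inhibitor of the ubiquitin ligase CHIP (ENSMUSG00000042215, mm10 chromosome 1, 33745484 to 33757795), had the largest negative value among tested members, -1.63 ± 0.24 or 3.09-fold in the authors' deposited table (adjusted p = 9.73e-10). Bag1, which links HSP70 to the proteasome, had -0.71 ± 0.24 and Bag6, which guides tail-anchored proteins, -0.39 ± 0.13 in the authors' deposited table (adjusted p = 0.0172 and 0.018). Bag1 was not called with length and GC trends removed (adjusted p = 0.181). Bag3, an inducible HSF1 target of selective autophagy, had -0.20 ± 0.20 in the authors' deposited table (adjusted p = 0.508). Neither Bag4 (0.24 ± 0.18) nor Bag5 (-0.03 ± 0.15) was called in the authors' deposited table.

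Small heat shock proteins hold unfolded proteins without ATP, and 4 of 8 had too few counts for an adjusted p. Hspb11, a subunit of the ciliary transport machinery and only a distant relative, was called at -0.69 ± 0.24 and a mean of 101.1 normalized counts in the authors' deposited table (adjusted p = 0.0234), but not with no filter on low means (adjusted p = 0.0609) or with length and GC trends removed (0.203). Hspb1, the stress-inducible member, had -0.12 ± 0.23 at 566.7 normalized counts in the authors' deposited table. Hspb6 and Hspb8, with means of 63.1 and 14.6, had -0.46 ± 0.36 and -0.54 ± 0.93 in the authors' deposited table. Heat shock factors gave 0 calls among 3 tested genes and 0 at an unadjusted p under 0.05. Hsf1, the main factor of the heat shock response, had 0.13 ± 0.16 and Hsf2 0.12 ± 0.19 in the authors' deposited table, and Hsf4 -0.31 ± 0.58 at a mean of 15.1 normalized counts. The transcript of Hsf1 does not show its activity, which is set on the protein. Among the other genes that the name pattern takes, the HSP70 exchange factor Hspbp1 had -0.52 ± 0.22 (adjusted p = 0.0594) and Hspbap1 0.02 ± 0.18 in the authors' deposited table. Hspg2 encodes perlecan, a matrix proteoglycan and no chaperone, and its 95% interval ran from -3.78 to 2.11 around a value of -0.83 in the authors' deposited table.

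The level of a gene was compared per kilobase of exon, on the linear scale of normalized counts. The length joined the exons of all annotated transcripts of a gene, so that the order also depends on the annotation. Hspa8 led with 17267 per kilobase, before Hsp90ab1 with 17003 and Hspa1b with 15583. The next levels were 4924 for Dnajb1, 4309 for Hspa1a and 4000 for Hsp90aa1. The split between Hspa1a and Hspa1b is uncertain, as given above. TRiC subunits lay between 774 (Tcp1) and 2850 (Cct5). These are means over the libraries of the authors' fit and have no spread of their own, so that neighbours in this order cannot be separated. All members summed to 2.02% of the normalized counts of the table, and Hspa8 made up 20.8% of that sum. The 7 members with a mean over 10000 normalized counts were Hspa8, Hsp90ab1, Hspa1b, Dnaja1, Dnajb1, Hsp90aa1 and Hspa1a. Their fold changes were positive, and those of Dnajb1 and Hspa1a were called. The 95% intervals of Hspa8 and Hsp90ab1 hold both signs. The next members by mean, Cct5, Cct7 and Cct8 (7883, 7613 and 6674), were negative. Of the most abundant 25% of tested protein-coding genes, a wider range of means, 1498 of 3265 lay above 0.

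Members close to the threshold were spread over both signs. Just inside it stood Pfdn4 (adjusted p = 0.0494) and Hspa14 (0.0402), both negative, and just outside it Hsp90aa1 (0.0521) and Dnaja1 (0.0532), both positive, in the authors' deposited table. Between an adjusted p of 0.05 and 0.1 lay 10 members, 5 above 0 and 5 below.

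The textbook targets of HSF1 had calls of both signs, at a share close to the background. Of 20 tested genes, members and others, 3 were called positive (Dnajb1, Hspa1a and Hsph1) and 2 negative, with a median of -0.01. The negative genes were Hspd1 and the non-member Cacybp, a cofactor of ubiquitin ligases, at -0.43 ± 0.14 in the authors' deposited table. The called share was 25%, beside 26.0% of all tested protein-coding genes, so that these counts do not set the list apart. In promoters, 15 of the 66 tested members with a RefSeq window (22.7%) held an inverted repeat of 2 units, against 12.2% of 9975 tested protein-coding genes. Matches stood before Hspa1a, Hsph1 and Dnaja4 among the 6 positive members, and before Cct2, Cct5 and Hspd1 among the 19 negative members with a window. A perfect repeat of 3 units was found for 3 of these 66 members (4.55%), Hspd1, Hspe1 and Dnajb6. It was found for 44 of the 9975 tested protein-coding genes (0.441%). Hspd1 and Hspe1 share the same stretch, so they are not separate matches. The 18 letters printed above for Hspd1 and Hspe1 lie inside the annotated span of Hspd1, and upstream of 1 of its 2 RefSeq starts and of the Hspe1 start. Dnajb6 had a fold change of 0.01 ± 0.16 in the authors' deposited table. A match is a description of letters in these windows and does not show binding.

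Other gene groups moved beside the members. Of 16 immediate early genes, which are induced during cell handling as some heat shock genes are, 10 were called positive and 0 negative, with Jun at 1.45 ± 0.16 in the authors' deposited table. Of 20 cell cycle genes, 20 were called negative, with Top2a, the topoisomerase of dividing cells, at -1.36 ± 0.20 in the authors' deposited table. The part of cell handling and of proliferation in the positive and negative members was not tested. Once length and GC trends were taken out, 7 members lost their call (Bag1, Dnajc8, Dnajc9, Hspa14, Hspb11, Pfdn4 and Pfdn6) and 3 gained one (Hsp90aa1, Dnajc4 and Dnajc24), with no change of sign among the called members.

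**Figure D4:**
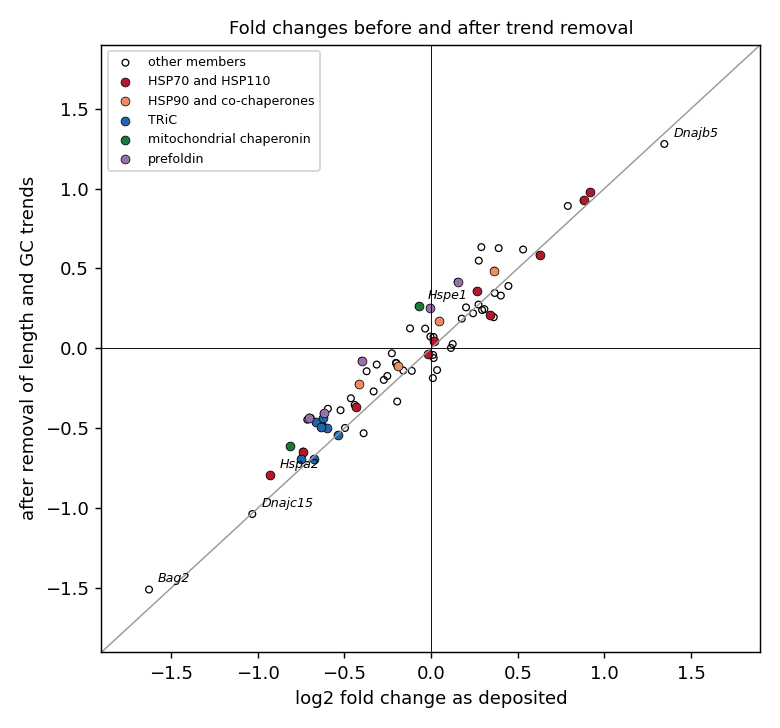
Log2 fold change after removal of trends with exonic length and GC content (vertical axis) against the value as deposited (horizontal axis), for tested members with a standard error below 0.5. The line marks equal values. TRiC subunits stay between -0.69 and -0.44, while the short prefoldin genes and Hspe1 lie above the line.

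Chaperones outside the cytosolic and mitochondrial members are given for comparison. Of 15 tested ER chaperones, 6 (40.0%) were called negative and 1 (6.67%) positive, with a median of -0.28. Of all tested protein-coding genes 14.7% were negative and 11.3% positive. The smallest p-values belonged to Creld2 (-0.67 ± 0.17), Sdf2l1 (-0.80 ± 0.21) and Manf (-0.60 ± 0.17) in the authors' deposited table. Of the ER counterparts of members, named after their values were seen, Hsp90b1, the ER form of HSP90, had -0.42 ± 0.16 and Hspa5, the ER HSP70, 0.04 ± 0.14 in the authors' deposited table. Of 21 tested cytosolic chaperones and co-chaperones that are no members, 3 were called negative and 0 positive, with a median of -0.16. The negative share of 14.3% was close to the background of 14.7%. Called were Cacybp, the dynein-associated Nudc (-0.56 ± 0.19) and the immunophilin Fkbp5 (-0.69 ± 0.26) in the authors' deposited table. The difference between these groups and the members was not tested.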

How the data were processed

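RNA of sorted lung ILC2s was sequenced in 3 WT and 3 KO samples. The labels' protocols name a SMART-Seq HT kit for cDNA and a TruePrep kit, which does not mark strand, for libraries. HISAT2, Cufflinks and the build mm10 come from the submitters' processing notes. For the counting tool, annotation and filters the sources used here say nothing. The authors deposited 1 table of their comparison. Its mean normalized count is a signal over the libraries of the authors' fit, per the file headers. Its log2 fold change comes with a standard error, per the file headers. It also holds a score (fold change over standard error), per the file headers. Each gene further has a p-value and an adjusted one in the deposited table. Column names match the results format of DESeq2, per the file headers. The libraries behind the fit are not stated, so p-values cannot be read as 3 samples against 3, and any spread behind them may be technical. A further 12 columns of sample values (6 names) matched no label and were not used, so the planned count fit was not made. Depth per sample was not used here. Precision is that of the standard error, whose median was 0.21 for tested protein-coding genes.

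Calls were made at the deposited adjusted p below 0.05, present for 14961 genes with means of at least 10.46. Intervals of 95% are normal. Positions and exonic lengths came from GENCODE M21, in which all 93 members were found, and promoters from RefSeq. Lowess trends (fraction 0.3) on exonic length, then on transcript GC content, were removed in 1 alternative. The call step was tested on simulated data. Members and lists were chosen with earlier results of these data known. Described in full were all called members, all tested members of role groups of 10 or fewer, in larger groups the most abundant and that with the smallest p, and up to 3 genes of each other gene list by p. Gata3, Rora and Il1rl1 were named as defining ILC2 markers and not by p, and all called ILC2 markers were named too. Neighbours with overlapping exons were named after their values were seen. Python 3.11.15, pandas 2.3.3, scipy 1.17.1, statsmodels 0.14.6 and matplotlib 3.10.9 were used.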

Additional observations from a re-analysis of the deposited data

How the results depend on the processing

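The 21 negative calls among members varied between 14 and 26 over 8 alternatives, the 7 TRiC calls between 6 and 7, and no called member changed sign. The negative background moved as well, from 14.7% of all tested protein-coding genes with the deposited values. The 14 calls stood beside 9.82% at an adjusted p below 0.01 and 11.5% with length and GC trends removed. The 26 calls at an adjusted p below 0.1 stood beside 17.6%. Positive calls were 6 with the deposited values, beside 11.3% of all tested protein-coding genes. They did not only move with that background, since removal of length and GC trends gave 9 beside an unchanged 11.3%. They numbered 3 at an adjusted p below 0.01 (background 7.11%), 11 below 0.1 (14.2%), 10 of 72 with only genes of a mean of at least 100 normalized counts (15.2%) and 10 after centring on the most abundant 25% of genes (12.8%). The 4 positive J-domain calls became 2, 7, 7 and 7 in the same order, and 2 with at least a 1.5-fold difference. The 4 negative J-domain calls became 2 after removal of length and GC trends, and the 3 negative BAG calls became 1 at an adjusted p below 0.01. In these alternatives the thresholds, the genes adjusted over or the fold changes themselves differ by construction. With no filter on low means 5 members lost their call. Fits on counts per sample, leaving out replicates and other count tools were not run, because the sample columns matched no label. No paired analysis was possible because the columns used carry no replicate numbers. Members with low means had wide deposited standard errors, such as 0.93 for Hspb8 and 0.58 for Hsf4.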
